A study of Homo sapiens with 3 samples.

Results

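The genes described here are 9 transcription factors of squamous and other epithelia, namely EHF, ELF3, GRHL1, GRHL2, GRHL3, TP63, KLF5, OVOL1 and SOX2. They were read on 3 Affymetrix expression arrays of KYSE150 cells, an established human line of squamous carcinoma of the oesophagus. Transfection 48 h earlier was with a pcDNA3.1 plasmid for LOXL2 WT, with a pcDNA3.1 plasmid for LOXL2 delta72, or with vector as Control. LOXL2 encodes a lysyl oxidase of the extracellular matrix, and the labels name its delta72 form without describing it. Each condition had 1 array, no label speaks of stable clones, and the promoter that drives the plasmids is not stated.

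The members were taken by symbol, as every probe set paired with 1 of the 9 symbols alone. This gave 29 probe sets of 8 genes, out of 44988 such probe sets of 18132 genes. TP63 was paired with no probe set in the annotation used and was not analysed here. The probe set that was brightest on average stood for its gene. In 7 of the 8 genes, and in 12232 genes of the whole array, its mean was at or above log2 5.27, the 40th percentile of all probe sets other than controls, which is called the filter below. GRHL3 did not reach it. The members were chosen by name with earlier differences of these 3 arrays in view, among them that EHF was the lowest of all genes with LOXL2 WT. All their values are therefore a description.

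Epithelial cells are kept epithelial by a small group of DNA-binding proteins. EHF and ELF3 belong to the epithelium-specific branch of the ETS family. The Grainyhead-like proteins GRHL1, GRHL2 and GRHL3 switch on junction and barrier genes, and GRHL2 also acts against the mesenchymal repressor ZEB1. TP63 is the master factor of stratified epithelia, and in squamous carcinomas of the oesophagus it works on shared enhancers with SOX2 and KLF5. OVOL1 is a zinc finger repressor that lets progenitor keratinocytes stop dividing and differentiate.

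The sequences before the start sites of EHF, GRHL1 and SOX2 are shown, since these members above the filter had the largest differences from Control with LOXL2 WT. Each is the 250 bases before a RefSeq start on GRCh38.p14, plus strand, 5′ to 3′. For EHF, first and second give the order of the starts listed in the promoter table used. The EHF gene itself begins further upstream, at base 34621093 of chromosome 11. Capitals mark 5 short motifs on either strand, which are the ETS core CGGAA, the Grainyhead core CNGGTT, the KLF and SP GC box CCCGCC, the SOX core ACAAT and the OVOL core CCGTTA.
EHF, first start, chr11:34624007-34624256: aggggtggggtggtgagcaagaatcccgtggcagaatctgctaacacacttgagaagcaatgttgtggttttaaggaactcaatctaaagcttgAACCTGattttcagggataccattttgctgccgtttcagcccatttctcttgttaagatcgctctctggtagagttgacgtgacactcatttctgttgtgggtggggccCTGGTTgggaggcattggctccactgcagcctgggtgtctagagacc
EHF, second start, chr11:34632316-34632565: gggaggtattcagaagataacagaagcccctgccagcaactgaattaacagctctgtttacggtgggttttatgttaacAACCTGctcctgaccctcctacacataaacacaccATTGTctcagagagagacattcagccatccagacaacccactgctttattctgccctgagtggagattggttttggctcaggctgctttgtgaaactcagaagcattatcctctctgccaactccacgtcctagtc
GRHL1, chr2:9951443-9951692: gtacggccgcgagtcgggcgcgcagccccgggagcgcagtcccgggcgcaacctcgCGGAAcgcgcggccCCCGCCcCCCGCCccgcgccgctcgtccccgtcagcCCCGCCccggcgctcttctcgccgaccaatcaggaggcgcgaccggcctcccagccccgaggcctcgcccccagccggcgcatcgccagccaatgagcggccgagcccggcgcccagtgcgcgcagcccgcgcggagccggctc
SOX2, chr3:181711675-181711924: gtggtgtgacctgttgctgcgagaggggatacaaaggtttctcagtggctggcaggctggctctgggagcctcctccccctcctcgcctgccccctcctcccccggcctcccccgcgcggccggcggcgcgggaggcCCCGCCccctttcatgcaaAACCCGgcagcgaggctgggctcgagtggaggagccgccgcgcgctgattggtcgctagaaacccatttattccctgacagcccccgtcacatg

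Before its first listed start EHF had 2 Grainyhead cores, 156 and 47 bases upstream. Before its second listed start it had 1, at 171 bases, and 1 SOX core, at 136 bases. The GRHL1 window held 1 ETS core and 3 GC boxes and no Grainyhead core. The SOX2 window held 1 GC box and 1 Grainyhead core. The OVOL core was in none of these 4 windows, and no matches in them overlapped. Such short motifs are common. Of 35116 promoter windows of this length, 32.0% held the Grainyhead core, 30.3% the ETS core, 42.5% the GC box, 24.6% the SOX core and 2.45% the OVOL core. A match is a description of the letters, and binding was not measured. Of the 9 members, 7 had an entry in the RefSeq promoter table, and GRHL2 and OVOL1 did not.

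Since no condition was repeated, differences could not be tested. "Higher" and "lower" speak of these arrays, and every difference is a log2 difference as deposited. The only error that can be given is the SD of a difference over the probe sets of a gene that reach the filter. It includes no biological error, and pooled over 7163 genes it was 0.17 for LOXL2 WT minus Control, 0.15 for LOXL2 delta72 minus Control and 0.11 for LOXL2 delta72 minus LOXL2 WT. A total RNA level also cannot tell fewer cells that express a gene from less RNA per cell. Both differences from Control use the same Control array, so a reading particular to that array would appear in both.

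The brightest probe set of LOXL2 itself read 14.05 on the LOXL2 WT array and 14.06 on the LOXL2 delta72 array, against 7.46 on the Control array. All 6 squamous markers with a probe set (KRT5, KRT14, DSG3, DSC3, TRIM29 and SFN) lay above the filter. Of the markers of other cell types, 1 of 6 fibroblast, 3 of 4 endothelial, 2 of 4 leukocyte and 1 of 5 columnar genes lay above it. The endothelial ones, PECAM1, VWF and KDR, read between 5.50 and 6.05 on the 3 arrays. Among the leukocyte genes CD68, which many cell types carry in lysosomes, differed from Control by -0.53 with LOXL2 WT and by -0.32 with LOXL2 delta72, while PTPRC, the pan-leukocyte gene, lay below the filter. CD3E, a T cell gene, read 5.34 with LOXL2 WT and 5.45 with LOXL2 delta72, against 5.55 on the Control array, just above the filter. The part of other cells in the results was not tested. The 23 background probe sets of the array, which match no gene, differed by -0.29 to 0.03 between the LOXL2 WT and Control arrays, by -0.17 to 0.05 between LOXL2 delta72 and Control and by -0.02 to 0.15 between both forms. Their level depends on the bases of the probes. The one with 10 G and C bases read between 2.47 and 2.48 on the 3 arrays. The one with 20 read 5.97 on the LOXL2 WT array, 6.06 on the LOXL2 delta72 array and 6.17 on the Control array. The G and C content of the factors' probes is not known here, so how far a dim reading lies above background is uncertain.

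Across the 8 measured factors there was no common direction. With LOXL2 WT 3 of the 7 factors above the filter were lower than Control and 4 higher, beside 51.7% of all genes lower. With LOXL2 delta72 4 were lower and 3 higher, beside 49.8% of all genes lower. The median over the 7 was 0.01 with LOXL2 WT and -0.07 with LOXL2 delta72, beside -0.01 with LOXL2 WT and 0.00 with LOXL2 delta72 over all genes. Of the 7, only EHF and GRHL1 differed from Control by at least 1.5-fold, and both did so with both forms, EHF lower and GRHL1 higher. Among all genes, 0.867% were at least 1.5-fold lower and 1.85% at least 1.5-fold higher with LOXL2 WT, and with LOXL2 delta72 0.499% were at least 1.5-fold lower and 1.28% at least 1.5-fold higher. In the same direction on both LOXL2 arrays, which share the Control array, 1.28% of all genes were past 1.5-fold. For both of these factors the difference rested on 1 probe set above the filter. Between both forms, 4 of the 7 were lower with LOXL2 delta72 and 3 higher, beside 49.3% of all genes lower.

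Read by probe set and with no filter, 15 of the 29 probe sets of the members were lower than Control with LOXL2 WT, beside 54.4% of all probe sets, and 16 with LOXL2 delta72, beside 52.5%. At least 1.5-fold lower were 3 of them with either form, beside 0.871% with LOXL2 WT and 0.442% with LOXL2 delta72. These 3 were the brightest and the second EHF probe sets and a dim one of GRHL2. At least 1.5-fold higher was 1 with either form, the brightest of GRHL1, beside 1.59% with LOXL2 WT and 0.991% with LOXL2 delta72. Between both forms, 15 were lower with LOXL2 delta72, beside 48.8%, and 1 was at least 1.5-fold higher, beside 0.262%, and 0 at least 1.5-fold lower, beside 0.129%. Probe sets of 1 gene read the same RNA and are not replicates.

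**Figure D1:**
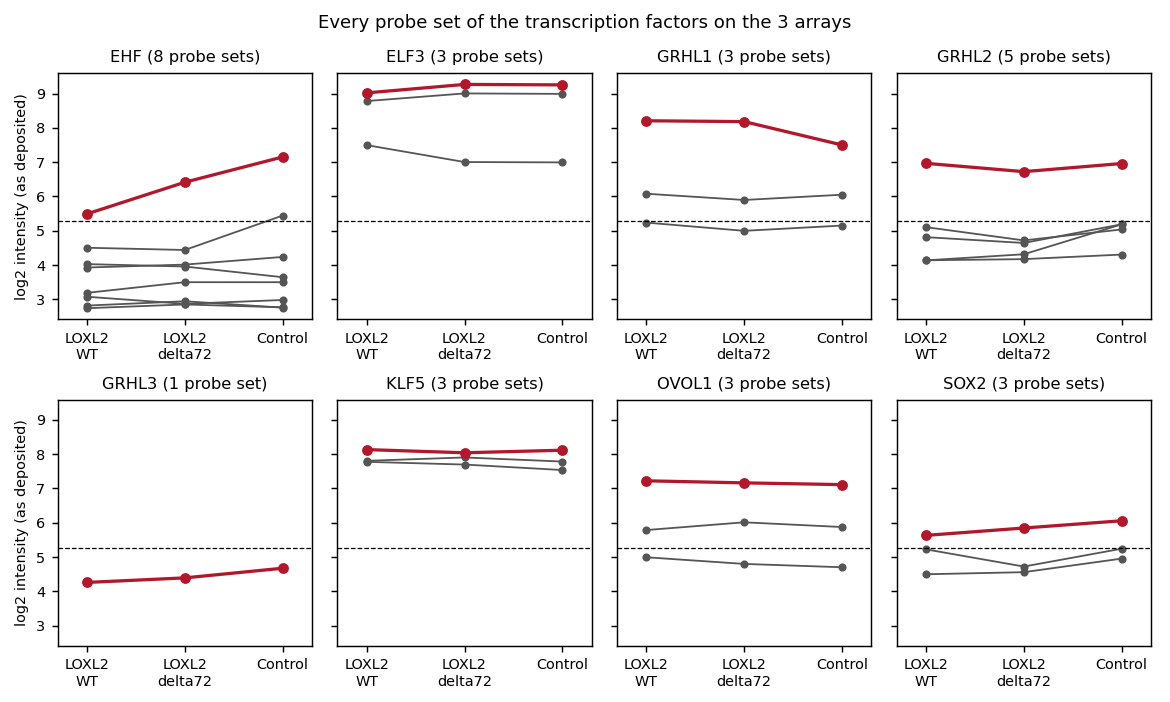
Log2 intensity as deposited (vertical axis) of every probe set of the 8 measured factors on the LOXL2 WT, LOXL2 delta72 and Control arrays (horizontal axis, 1 array each). Red marks the probe set with the highest mean, grey the others, and the dashed line the filter at 5.27. The brightest EHF probe set goes down to 5.49 with LOXL2 WT, and the brightest GRHL1 probe set lies near 8.2 on both LOXL2 arrays, while the dimmer GRHL1 probe sets differ from Control by -0.15 to 0.09.

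EHF, an ETS factor that acts in the differentiation of glandular and stratified epithelia, lies on chromosome 11 and had 8 probe sets, more than any other member. Its brightest probe set read 5.49 on the LOXL2 WT array and 6.42 on the LOXL2 delta72 array, against 7.15 on the Control array. It was thus highest on the Control array, lowest with LOXL2 WT and in between with LOXL2 delta72. The differences from Control were -1.66 with LOXL2 WT (3.16-fold lower) and -0.74 with LOXL2 delta72 (1.67-fold lower). The reading of 5.49 with LOXL2 WT lay near the filter and below the background probe set with 20 G and C bases on that array (5.97), so its level above background is uncertain and the fold is approximate. Of the 12232 genes, 0 had a lower value with LOXL2 WT and 22 had a lower one with LOXL2 delta72.

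The second EHF probe set read 4.50 with LOXL2 WT and 4.44 with LOXL2 delta72, against 5.44 on the Control array. It lay below the filter in its mean, and it also was lower with both forms, at -0.94 with LOXL2 WT and -1.0 with LOXL2 delta72. Here the forms did not differ as they did in the brightest probe set, since LOXL2 delta72 read -0.07 relative to LOXL2 WT. The other 6 EHF probe sets, all with a mean below 4.1, differed from Control by -0.31 to 0.38 with LOXL2 WT and by -0.22 to 0.31 with LOXL2 delta72. Over all 8, 5 were lower with LOXL2 WT and 4 with LOXL2 delta72, and the median was -0.17 with LOXL2 WT and -0.06 with LOXL2 delta72.

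The SD over the 8 EHF probe sets was 0.66 for LOXL2 WT minus Control and 0.46 for LOXL2 delta72 minus Control. Of the 8 only the brightest reached the filter, so no SD over EHF probe sets above the filter can be given. The positions of the probes are not known here, so which EHF transcripts each probe set reads is not known. The brightest one carries the Affymetrix suffix _s_at, which marks probes that can match transcripts of more than 1 gene, although the annotation lists EHF alone. When probe sets with that suffix or with _x_at were left out, EHF no longer reached the filter.

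The comparison between both forms does not use the Control array. In it, the brightest EHF probe set was 0.92 higher with LOXL2 delta72 than with LOXL2 WT (1.90-fold, again against the dim LOXL2 WT reading), and 2 of the 12232 genes had a higher value. Of all genes, 0.180% were at least 1.5-fold higher in this comparison. EHF was the 1 member among them, and 0 members were at least 1.5-fold lower, beside 0.0409% of all genes. The next EHF probe set in this comparison was 0.31 higher with LOXL2 delta72, at 3.5 with LOXL2 delta72 and 3.19 with LOXL2 WT, and lay far below the filter.

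ELF3, the closest relative of EHF among the members, is an ETS factor of epithelia on chromosome 1 that is also induced by inflammatory signals. Its 3 probe sets all lay above the filter. The brightest read 9.02 with LOXL2 WT and 9.27 with LOXL2 delta72, against 9.25 on the Control array. The second read 8.78 with LOXL2 WT and 9.01 with LOXL2 delta72, against 8.99 on the Control array. Both were slightly lower with LOXL2 WT, by -0.23 and -0.21 in these 2 probe sets, and level with LOXL2 delta72, at 0.01 each. The third probe set did the opposite and read 7.50 with LOXL2 WT and 7.0 with LOXL2 delta72, against 6.99 on the Control array, a difference of 0.50 with LOXL2 WT.

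For LOXL2 delta72 the 3 ELF3 probe sets agreed closely, with differences between 0.0103 and 0.0134 (SD 0.0018). For LOXL2 WT they split, with an SD of 0.42, and for LOXL2 delta72 minus LOXL2 WT likewise, with 0.25, 0.22 and -0.49 (SD 0.42). Only 0.308% of the genes with several probe sets had a larger SD between both forms. The direction of ELF3 on the LOXL2 WT array therefore depends on the probe set read. All 3 carry the suffix _s_at.

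GRHL1 is the Grainyhead-like factor that in mice acts in desmosomal adhesion and in the hair follicle, and it lies on chromosome 2. Its brightest probe set read 8.21 with LOXL2 WT and 8.18 with LOXL2 delta72, against 7.50 on the Control array. Both LOXL2 arrays were thus high, and nearly equal, with LOXL2 WT at 0.71 above Control (1.63-fold) and LOXL2 delta72 at 0.68 above it (1.60-fold). Of all genes, 108 were higher still with LOXL2 WT and 88 with LOXL2 delta72. The second probe set, also above the filter, read 6.08 with LOXL2 WT and 5.90 with LOXL2 delta72, against 6.05 on the Control array. The third, below the filter in its mean, read 5.24 with LOXL2 WT and 5.0 with LOXL2 delta72, against 5.15 on the Control array.

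The dimmer 2 GRHL1 probe sets differed from Control by 0.03 and 0.09 with LOXL2 WT and by -0.15 each with LOXL2 delta72. The higher reading of GRHL1 thus came from 1 of its 3 probe sets. The SD over the 2 above the filter was 0.48 for LOXL2 WT minus Control and 0.59 for LOXL2 delta72 minus Control, beside differences of 0.71 with LOXL2 WT and 0.68 with LOXL2 delta72. With the median level of all its probe sets, GRHL1 was 0.03 with LOXL2 WT and -0.15 with LOXL2 delta72, so neither difference reached 1.5-fold and the second changed sign. All 3 GRHL1 probe sets read lower with LOXL2 delta72 than with LOXL2 WT, by -0.02 to -0.24.

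GRHL2, which keeps E-cadherin and the epithelial splicing regulators switched on, had 5 probe sets, of which 1 reached the filter. That one read 6.97 with LOXL2 WT and 6.72 with LOXL2 delta72, against 6.96 on the Control array. It was level with LOXL2 WT (0.01) and slightly lower with LOXL2 delta72 (-0.24). This probe set carries the suffix _x_at. When probe sets ending in _s_at or _x_at were left out, GRHL2 no longer reached the filter. All 5 probe sets were lower than Control with LOXL2 delta72, by -0.13 to -0.87, and 3 of 5 were lower with LOXL2 WT.

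The largest GRHL2 difference was in a dim probe set at 4.14 with LOXL2 WT and 4.32 with LOXL2 delta72, against 5.19 on the Control array. Its difference from Control was -1.05 with LOXL2 WT and -0.87 with LOXL2 delta72. Another dim one read 4.81 with LOXL2 WT and 4.64 with LOXL2 delta72, against 5.19 on the Control array, which gives -0.37 with LOXL2 WT and -0.54 with LOXL2 delta72. The remaining dim ones lay between -0.17 and 0.07 with LOXL2 WT and between -0.13 and -0.32 with LOXL2 delta72. All the probe sets with these larger differences lay below the filter. Between both forms the probe set above the filter was -0.24 with LOXL2 delta72, and 2.68% of all genes had a lower value.

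GRHL3, needed in mice for closing the neural tube and for the skin barrier, had 1 probe set, below the filter on all 3 arrays. It read 4.26 with LOXL2 WT and 4.39 with LOXL2 delta72, against 4.67 on the Control array. The difference was -0.41 with LOXL2 WT and -0.28 with LOXL2 delta72, neither of them 1.5-fold. On each array it also read below the background probe set with 20 G and C bases, so its level above background is uncertain.

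**Figure D2:**
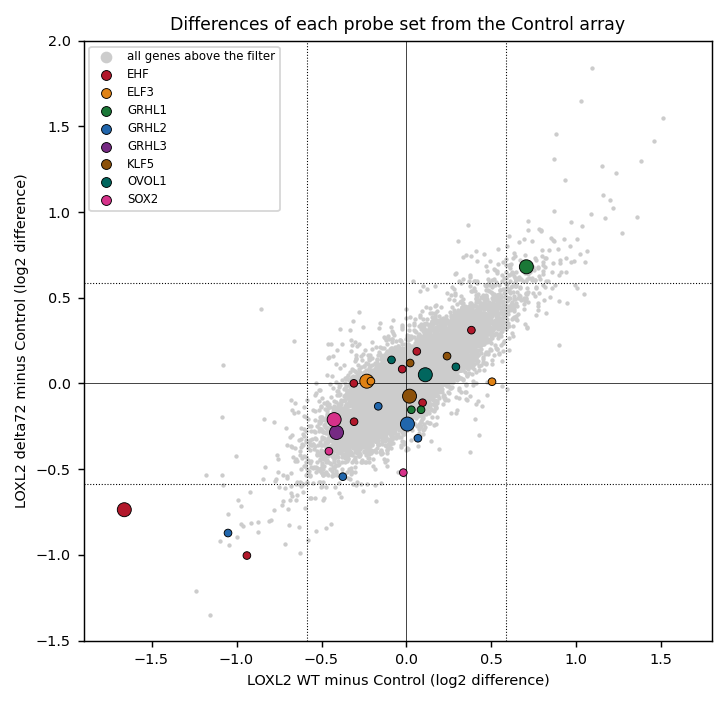
Log2 difference of LOXL2 WT from Control (horizontal axis) and of LOXL2 delta72 from Control (vertical axis), which share the Control array, for each probe set of the 8 measured factors (coloured, large for the brightest of a gene) and for all 12232 genes above the filter (grey). Dotted lines mark 1.5-fold, and LOXL2 lies outside the axes. The brightest EHF probe set stands at -1.66 with LOXL2 WT and -0.74 with LOXL2 delta72, and the other EHF point to the lower left is at -0.94 with LOXL2 WT and -1.0 with LOXL2 delta72.

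SOX2, a factor of oesophageal progenitors that is often amplified in squamous carcinomas, had 3 probe sets on chromosome 3, and all 3 read lower with both forms. The brightest read 5.63 with LOXL2 WT and 5.85 with LOXL2 delta72, against 6.06 on the Control array, a difference of -0.43 with LOXL2 WT and -0.21 with LOXL2 delta72. Like GRHL3, this probe set lay below the background probe set with 20 G and C bases on all 3 arrays, and so did the dimmer SOX2 ones. The dimmest read 4.50 with LOXL2 WT and 4.56 with LOXL2 delta72, against 4.96 on the Control array, a difference of -0.46 with LOXL2 WT and -0.40 with LOXL2 delta72. The remaining one read 5.23 with LOXL2 WT and 4.72 with LOXL2 delta72, against 5.24 on the Control array, a difference of -0.02 with LOXL2 WT and -0.52 with LOXL2 delta72. The probe sets thus agreed in direction against the 1 Control array and not in size.

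No SOX2 probe set reached 1.5-fold in any of the 3 comparisons. Of all genes, 2.98% lay below the brightest SOX2 probe set with LOXL2 WT and 12.2% with LOXL2 delta72. Which form gave the lower value depended on the probe set, since LOXL2 delta72 minus LOXL2 WT was 0.21 in the brightest, 0.06 in the dimmest and -0.50 in the remaining one.

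KLF5, a zinc finger factor of basal cells in the oesophagus, had 3 probe sets on chromosome 13, all above the filter, and all stayed close to Control. The brightest read 8.13 with LOXL2 WT and 8.04 with LOXL2 delta72, against 8.12 on the Control array, a difference of 0.02 with LOXL2 WT and -0.07 with LOXL2 delta72. The dimmer 2 differed by 0.02 and 0.24 with LOXL2 WT and by 0.12 and 0.16 with LOXL2 delta72. Over the 3 probe sets the median was 0.02 (SD 0.13) with LOXL2 WT and 0.12 (SD 0.12) with LOXL2 delta72.

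OVOL1, the repressor of progenitor genes, likewise stayed close to Control. Its 3 probe sets on chromosome 11 differed by -0.09 to 0.29 with LOXL2 WT and by 0.05 to 0.14 with LOXL2 delta72. The brightest read 7.22 with LOXL2 WT and 7.16 with LOXL2 delta72, against 7.11 on the Control array. The dimmest, below the filter, had the largest difference and read 4.99 with LOXL2 WT and 4.80 with LOXL2 delta72, against 4.70 on the Control array.

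**Figure D3:**
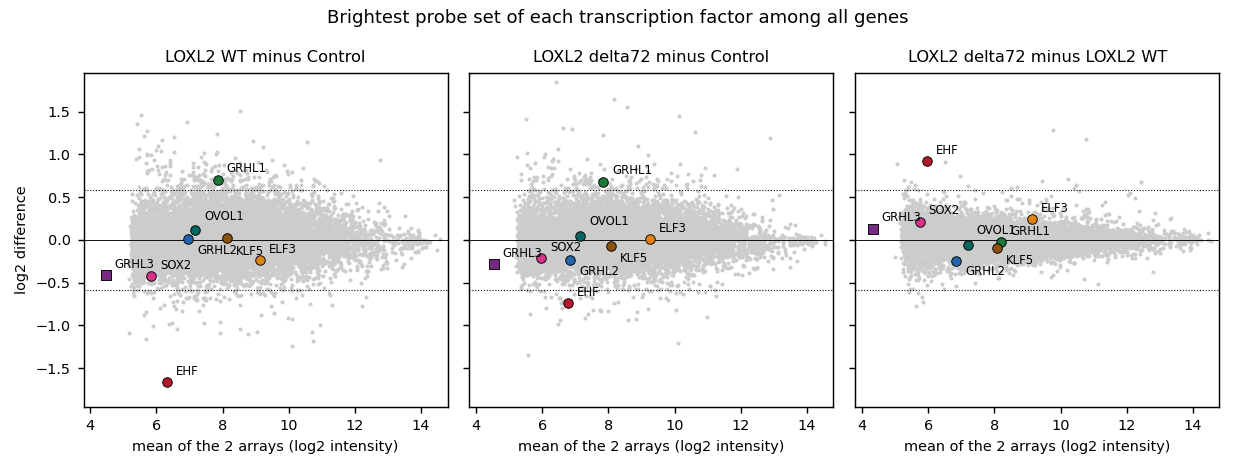
Log2 difference (vertical axis) against the mean log2 intensity of the 2 arrays compared (horizontal axis), for the brightest probe set of each factor (labelled, a square where it is below the filter) and for all 12232 genes above the filter (grey, LOXL2 outside the axes). EHF stands at the lower edge of all genes with LOXL2 WT, at -1.66, and near the upper edge between both forms, at 0.92, whereas KLF5 and OVOL1 lie near 0 in all 3 panels.

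Genes with the most similar pattern over the 3 arrays were looked for, by the Euclidean distance between array values centred per gene. The nearest to EHF was OSMR, part of the receptor for oncostatin M, at a distance of 0.34, with a difference from Control of -1.18 with LOXL2 WT and -0.53 with LOXL2 delta72. ZNF436-AS1 (distance 0.41) stood at -1.09 with LOXL2 WT and -0.54 with LOXL2 delta72. ALDOC, the glycolytic aldolase C (distance 0.43), stood at -1.08 with LOXL2 WT and -0.59 with LOXL2 delta72. No gene above the filter came within 0.1 of EHF. As EHF was the lowest of all genes with LOXL2 WT, few genes could lie near it. The lack of neighbours restates that extreme value and adds nothing to it. GRHL1 had 73 genes within 0.1. The nearest were MOSPD1 (0.0083), AUP1 (0.0152), which acts in the degradation of proteins from the endoplasmic reticulum, and PLD6 (0.0186). Likeness over 3 arrays is a weak criterion.

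The relatives of the members were read from lists of the same families, chosen as the members were with earlier results known. Of 11 other ETS factors above the filter, 5 were lower with LOXL2 WT and 4 with LOXL2 delta72, and none reached 1.5-fold. Beside these, 51.7% of all genes were lower with LOXL2 WT and 49.8% with LOXL2 delta72. At least 1.5-fold lower were 0.867% of all genes with LOXL2 WT and 0.499% with LOXL2 delta72. At least 1.5-fold higher were 1.85% with LOXL2 WT and 1.28% with LOXL2 delta72. ETV5, which follows ERK signalling, read 8.15 with LOXL2 WT and 8.43 with LOXL2 delta72, against 8.61 on the Control array, a difference of -0.47 with LOXL2 WT and -0.19 with LOXL2 delta72. ETV4, its close relative, was at -0.38 (SD 0.10 over 2 probe sets) with LOXL2 WT and -0.16 (SD 0.04) with LOXL2 delta72. Both had the order of the brightest EHF probe set, with LOXL2 WT lowest and LOXL2 delta72 in between. The background probe set with 20 G and C bases had this order too. It read 5.97 with LOXL2 WT, 6.06 with LOXL2 delta72 and 6.17 on the Control array. The background probe set with 10 was nearly level. ELF1, a broadly expressed ETS factor, was at 0.24 with LOXL2 WT and 0.11 with LOXL2 delta72, and ELK3 at -0.09 with LOXL2 WT and -0.14 with LOXL2 delta72. ELF5, another epithelium-specific relative, lay below the filter.

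Among 10 other KLF factors above the filter, 2 were at least 1.5-fold higher with both forms and 0 were at least 1.5-fold lower. Of all genes, 1.85% were at least 1.5-fold higher with LOXL2 WT and 1.28% with LOXL2 delta72. At least 1.5-fold lower were 0.867% with LOXL2 WT and 0.499% with LOXL2 delta72. KLF10, an early TGF-beta response gene, read 9.49 with LOXL2 WT and 9.43 with LOXL2 delta72, against 8.33 on the Control array. Both LOXL2 arrays were high, with differences of 1.15 (SD 0.01 over 2 probe sets) with LOXL2 WT and 1.10 (SD 0.04) with LOXL2 delta72. KLF11, its closest paralogue, was at 0.61 with LOXL2 WT and 0.67 with LOXL2 delta72, but its 2 probe sets above the filter disagreed, with an SD of 0.58 with LOXL2 WT and 0.47 with LOXL2 delta72. KLF4, which promotes differentiation in stratified epithelia, was at 0.29 (SD 0.39 over 2 probe sets) with LOXL2 WT and 0.31 (SD 0.26) with LOXL2 delta72, and KLF6 at 0.13 with LOXL2 WT and 0.34 with LOXL2 delta72. The list median was 0.08 with LOXL2 WT and 0.05 with LOXL2 delta72.

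Of 6 other SOX factors above the filter, 4 were lower with either form, and none reached 1.5-fold. Beside these, 51.7% of all genes were lower with LOXL2 WT and 49.8% with LOXL2 delta72. At least 1.5-fold lower were 0.867% of all genes with LOXL2 WT and 0.499% with LOXL2 delta72. At least 1.5-fold higher were 1.85% with LOXL2 WT and 1.28% with LOXL2 delta72. SOX7 was at -0.27 with LOXL2 WT and -0.46 with LOXL2 delta72, and SOX9, a factor of progenitor cells, at -0.27 with both. SOX12 was at -0.25 with LOXL2 WT and -0.05 with LOXL2 delta72, and SOX13 at -0.16 with LOXL2 WT and -0.12 with LOXL2 delta72. The list median was -0.21 with LOXL2 WT and -0.08 with LOXL2 delta72. With the median over probe sets it became -0.03 with LOXL2 WT and -0.04 with LOXL2 delta72.

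Among 10 further epithelial factors above the filter, 7 were lower with LOXL2 WT and 8 with LOXL2 delta72. Beside these counts stand 51.7% of all genes lower with LOXL2 WT and 49.8% with LOXL2 delta72. TFAP2A, the AP-2 factor that drives keratinocyte genes, read 8.78 with LOXL2 WT and 8.67 with LOXL2 delta72, against 9.34 on the Control array. Its difference was -0.56 (SD 0.17 over 3 probe sets) with LOXL2 WT and -0.67 (SD 0.22) with LOXL2 delta72. The second of these was the 1 difference from Control in this list past 1.5-fold, beside 0.499% of all genes at least 1.5-fold lower. TFAP2C, its paralogue, was at -0.09 with LOXL2 WT and -0.30 with LOXL2 delta72, and PAX9, a factor of oesophageal differentiation, at -0.17 with LOXL2 WT and -0.38 with LOXL2 delta72. TP73, the relative of the unmeasured TP63, was at -0.31 (SD 0.16 over 9 probe sets) with LOXL2 WT and -0.10 (SD 0.07) with LOXL2 delta72. GATA3, which acts in the epidermal barrier, was higher, at 0.36 with LOXL2 WT and 0.29 with LOXL2 delta72. ZNF750 and PRDM1, which act in terminal differentiation, lay below the filter.

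Genes known to be switched on by p63 in basal cells were mostly lower on both LOXL2 arrays. Of 12 above the filter, 10 were lower with LOXL2 WT and 11 with LOXL2 delta72, with a median of -0.16 with LOXL2 WT and -0.21 with LOXL2 delta72. Of all genes, 51.7% were lower with LOXL2 WT and 49.8% with LOXL2 delta72. CSTA, the cystatin A gene of the cornified envelope, read 10.27 with LOXL2 WT and 10.41 with LOXL2 delta72, against 11.02 on the Control array, a difference of -0.75 with LOXL2 WT and -0.61 with LOXL2 delta72. KRT14, a basal keratin, read 7.08 with LOXL2 WT and 7.10 with LOXL2 delta72, against 7.76 on the Control array, a difference of -0.67 with LOXL2 WT and -0.66 with LOXL2 delta72. DSC3, a desmosomal cadherin, read 7.28 with LOXL2 WT and 6.95 with LOXL2 delta72, against 7.81 on the Control array, a difference of -0.53 (SD 0.13 over 3 probe sets) with LOXL2 WT and -0.86 (SD 0.35) with LOXL2 delta72.

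CSTA and KRT14, with 1 probe set each, were thus past 1.5-fold with LOXL2 WT, and all 3 with LOXL2 delta72. Beside them stand 0.867% of all genes at least 1.5-fold lower with LOXL2 WT and 0.499% with LOXL2 delta72. Between both forms 6 of the 12 p63-regulated genes were lower and the median was -0.01. Their shared direction was seen only against the 1 Control array, and its cause was not tested.

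Genes that Grainyhead-like factors act on were slightly lower in 9 of 13 with either form, with a median of -0.20 with LOXL2 WT and -0.15 with LOXL2 delta72, and none reached 1.5-fold. Beside these stand the 51.7% of all genes lower with LOXL2 WT and the 49.8% with LOXL2 delta72. At least 1.5-fold lower were 0.867% of all genes with LOXL2 WT and 0.499% with LOXL2 delta72. At least 1.5-fold higher were 1.85% with LOXL2 WT and 1.28% with LOXL2 delta72. Between both forms 7 of the 13 Grainyhead-regulated genes were lower and the median was -0.02. Their direction too was seen only against the 1 Control array, and its cause was not tested. RAB25, a trafficking GTPase of epithelia, was at -0.42 with LOXL2 WT and -0.23 with LOXL2 delta72. SPINT1, a protease inhibitor of the epithelial surface, was at -0.32 (SD 0.14 over 5 probe sets) with LOXL2 WT and -0.24 (SD 0.06) with LOXL2 delta72. PRSS8, a membrane protease that such inhibitors hold back, was at -0.30 (SD 0.15 over 5 probe sets) with LOXL2 WT and -0.27 (SD 0.11) with LOXL2 delta72. The receptor gene ERBB3 was at -0.24 with LOXL2 WT and -0.38 with LOXL2 delta72. ESRP2, an epithelial splicing regulator, was among the 4 higher ones, at 0.30 with LOXL2 WT and 0.10 with LOXL2 delta72. CDH1, the E-cadherin gene, was also among these 4 but near Control. It was at 0.05 (SD 0.22 over 2 probe sets) with LOXL2 WT and 0.0045 (SD 0.17) with LOXL2 delta72.

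Of 6 genes linked to ELF3 or EHF above the filter, 2 were lower with LOXL2 WT and 3 with LOXL2 delta72. For all genes the share lower was 51.7% with LOXL2 WT and 49.8% with LOXL2 delta72. The median of the 6 was 0.02 with LOXL2 WT and 0.01 with LOXL2 delta72. LCN2, the iron-binding lipocalin of inflamed epithelia, had 1 probe set that read 6.18 with LOXL2 WT and 6.75 with LOXL2 delta72, against 5.82 on the Control array. It was 0.36 higher with LOXL2 WT and 0.92 higher (past 1.5-fold) with LOXL2 delta72. With LOXL2 delta72, 1.28% of all genes were at least 1.5-fold higher. The others named lay near Control. TGM3, a transglutaminase of the cornified envelope, was at 0.11 with LOXL2 WT and -0.01 with LOXL2 delta72, and KRT4, a keratin of the oesophageal lining, at 0.01 with LOXL2 WT and -0.10 with LOXL2 delta72. CLDN7, a tight junction claudin, was at -0.08 with LOXL2 WT and 0.02 with LOXL2 delta72, and NOS2 at 0.03 with LOXL2 WT and 0.05 with LOXL2 delta72. TGM3, KRT4 and NOS2 read below the background probe set with 20 G and C bases on each array. Their level above background is thus uncertain, and a change in them could be missed.

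The mesenchymal repressors that oppose GRHL2 and OVOL1 were mostly dim. SNAI2 and TWIST1 lay above the filter, and SNAI1, ZEB1, ZEB2 and TWIST2 below it. SNAI2, the Slug gene, which basal keratinocytes also express, read 10.53 with LOXL2 WT and 10.46 with LOXL2 delta72, against 9.93 on the Control array. On this 1 probe set it was 0.60 higher (past 1.5-fold) with LOXL2 WT and 0.54 higher (under it) with LOXL2 delta72. TWIST1 was at -0.01 with LOXL2 WT and 0.08 with LOXL2 delta72.

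Of 5 genes for ubiquitin ligases or inhibitors of p63 or KLF5, none reached 1.5-fold. Among all genes, 0.867% were at least 1.5-fold lower and 1.85% at least 1.5-fold higher with LOXL2 WT. With LOXL2 delta72 the shares were 0.499% lower and 1.28% higher. PPP1R13L, the gene of the p53 family inhibitor iASPP, was at -0.44 with LOXL2 WT and -0.33 with LOXL2 delta72 on 1 probe set, and ITCH, a ligase for p63, at -0.18 with LOXL2 WT and -0.10 with LOXL2 delta72. FBXW7, which marks KLF5 for degradation, was at 0.08 with LOXL2 WT and 0.11 with LOXL2 delta72, and SMURF2 at -0.08 with LOXL2 WT and -0.01 with LOXL2 delta72. None of the 10 squamous differentiation genes above the filter reached 1.5-fold, beside the same shares of all genes. On each array most of these 10 read below the background probe set with 20 G and C bases. Their level above background is therefore uncertain, and a change in them could be missed. Of the 10, 4 were lower with LOXL2 WT and 9 with LOXL2 delta72, and the median was 0.01 with LOXL2 WT and -0.09 with LOXL2 delta72. The shares of all genes lower were 51.7% with LOXL2 WT and 49.8% with LOXL2 delta72. The 60th percentile filter leaves only KRT10 and FLG of the 10, and the median became 0.25 with LOXL2 WT and 0.13 with LOXL2 delta72. It is then no measure of the list. FLG was at 0.05 with LOXL2 WT and -0.08 with LOXL2 delta72. KRT10, a keratin of suprabasal cells, was at 0.46 with LOXL2 WT and 0.33 with LOXL2 delta72, and CNFN, the cornifelin gene, at -0.40 with LOXL2 WT and -0.20 with LOXL2 delta72. The cornified envelope genes SPRR1A and SPRR3 were at -0.18 with LOXL2 WT and -0.13 with LOXL2 delta72 and at 0.16 with LOXL2 WT and -0.24 with LOXL2 delta72.

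**Figure D4:**
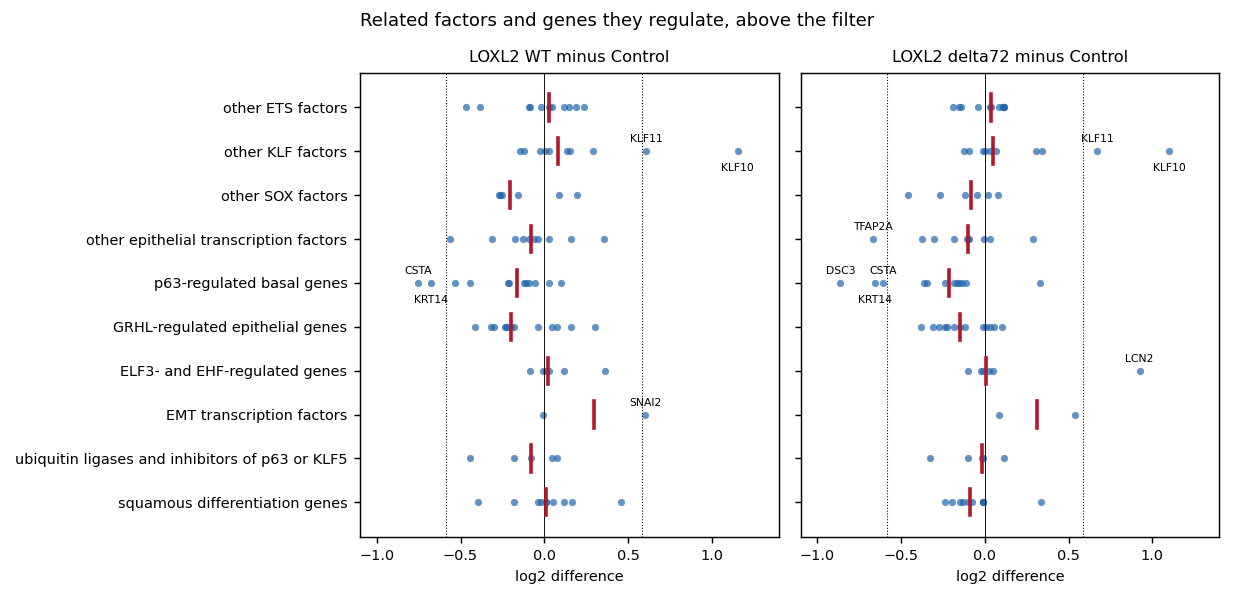
Log2 difference from Control (horizontal axis) of each gene above the filter (blue points) in the 10 lists of related factors and target genes (rows), for LOXL2 WT on the left and LOXL2 delta72 on the right. Red bars are list medians, dotted lines mark 1.5-fold and genes past it are named. KLF10 stands apart at 1.15 with LOXL2 WT and 1.10 with LOXL2 delta72, and the lower edge of the p63-regulated row holds CSTA, KRT14 and DSC3.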

How the data were processed

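The authors deposited 1 table with 49395 probe sets on 3 arrays, read here as log2 intensities since every value lay between 2.07 and 14.56. Per the submitters' processing notes, Partek and Affymetrix Expression Console were used, and the normalization algorithm, the background correction and their versions are not stated. Per the labels' protocols, biotin-labelled cRNA came from 100 ng of total RNA. The number of arrays limits the precision.

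From these values, with Python 3.11.15 and pandas 2.3.3, the brightest single-symbol probe set stood for a gene, genes under the 40th percentile were left out, and log2 differences were counted at 1.5-fold (0.585). No test was made, because each condition had 1 array. Genes named besides the members were, per list, the 3 with the largest difference from Control with either form, the 3 nearest patterns of each member past 1.5-fold, and markers or genes below the filter named for that alone. CDH1 and FLG were named outside these rules. Members, lists and rules were chosen with earlier results of these data known. The counting was tested on simulated data with shifts far larger than the noise set there. That checks the code and not the error of these arrays. Alternatives were common-median, quantile and lowess scaling, the median over probe sets, no filter and a 60th percentile filter. Leaving out probe sets ending in _s_at or _x_at was chosen after seeing the data. Promoters came from RefSeq on GRCh38.p14. Of the genes that the naming rule chose among the Grainyhead-regulated ones, 1 is not reported here.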

Additional observations from a re-analysis of the deposited data

How the results depend on the processing

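The members' own differences kept their direction where they were past 1.5-fold, except that GRHL1 read -0.15 with LOXL2 delta72 under the median over probe sets. EHF stayed between -1.70 and -1.60 with LOXL2 WT under the 3 rescalings and left the set under the 60th percentile filter, the median over probe sets and without probe sets ending in _s_at or _x_at, because its mean fell under the limit. For LOXL2 WT, the number of members lower (3) became 5 with a common median, because KLF5 and GRHL2 lie near 0, and 1 with the 60th percentile filter and without the shared probe sets. The number past 1.5-fold (2) became 0 with the median over probe sets and 1 with the 60th percentile filter and without the shared probe sets. For LOXL2 delta72, the number lower (4) became 1 with the median over probe sets and 2 with the 60th percentile filter and without the shared probe sets, and the number past 1.5-fold (2) became 0 with the median over probe sets and 1 with those other settings. Between both forms, the number lower (4) became 1 and the members' median (-0.02) became 0.16 with the median over probe sets, the number past 1.5-fold (1) became 0 with the 60th percentile filter, without the shared probe sets and with the median over probe sets, and the count of all genes past 1.5-fold (27) became 56 without a filter and 11 with the 60th percentile filter. The median over probe sets, the 60th percentile filter and the removal of shared probe sets left fewer members to count. No paired analysis was possible because each condition had 1 array and no replicate numbers. Brightness limits GRHL3, SOX2, the dimmer EHF and GRHL2 probe sets and the brightest EHF probe set with LOXL2 WT (5.49), which lie near or below the filter.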
